A study of Mus musculus with 2 samples.

Results

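The genes described here are 49 genes of DNA replication and S phase, taken from a named list. A gene was a member if its row held at least 50 unique molecular identifiers (UMIs, the tags that count RNA molecules) over the 3765 cell barcodes with at least 500 genes and at most 10% mitochondrial UMIs. All 49 listed genes met the rule, out of 11057 such genes among 19144 in the table. They had 157 (Orc1) to 5245 (Rrm2) UMIs each and 76271 together, or 4384 UMIs per 1000000 UMIs of the same cells (CPM). Cells of the forebrain ventricle wall of CD1 mouse embryos had been cultured without serum, with leukemia inhibitory factor (LIF) at 10 ng/mL, until they formed primary neurospheres, which are floating colonies. These were dissociated and their RNA was captured by Drop-seq, a droplet method that reads RNA 3′ ends. The medium also held an additive labelled EFH, which the sources used here do not explain, and colonies of at least 50 μm were taken as primitive neurospheres. All animals had the same genotype label, no treatment was contrasted, and how many embryos were pooled is not given in the sources used here. The series text names nuclei and the protocols name dissociated cells, and barcodes are called cells here. The labels list 2 samples, but the single count table has no column that ties a barcode to a sample, so it was treated as 1 sample with no replicate error and no test.

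Eukaryotic DNA replication begins with licensing. The origin recognition complex, CDC6 and CDT1 load the MCM2-7 helicase rings onto origins in G1, and geminin blocks CDT1 afterwards so that each origin fires once. In S phase CDC45 and GINS turn MCM2-7 into the active helicase, polymerase alpha with primase starts each strand, and polymerases epsilon and delta extend it with the PCNA clamp, which the RFC complex loads. RPA coats single-stranded DNA, FEN1 and DNA ligase I finish the lagging strand, and ribonucleotide reductase, thymidylate synthase, thymidine kinase and dUTPase supply nucleotides. Many of these genes are targets of E2F transcription factors, which are released at the G1/S transition, and neural progenitors of the embryonic forebrain divide often and use the whole set.

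To place cells in the cycle without using any member, 2 fixed anchor lists were counted in each cell after random thinning to 2000 UMIs: 24 other S phase genes such as Uhrf1 and Hells, and 54 G2 and mitosis genes such as Top2a, Cdk1 and Ube2c. The 710 kept cells with fewer UMIs were left out, which leaves 3055. Low cells had both counts at or below their medians (4 and 12 UMIs) and numbered 1141, or 37.3% of cells (exact binomial 35.6 to 39.1). The other 1914 cells were ordered by the balance of the 2 counts, each taken above its 20th percentile, and cut into 6 windows. The order ran from window 1, weighted most to S anchors, to window 6, weighted most to G2/M anchors. Median S and G2/M anchor UMIs were 8 and 7 in window 1, 1 and 37 in window 6, and 1 and 6 in low cells. Windows 1 to 6 held 305, 374, 304, 365, 372 and 194 cells. These are ranges of a score and not cell types, and 469 cells (15.4%) lay within 1 UMI of the boundary of the low group. The median depth was 4001 UMIs in low cells and 4362, 4446, 5092, 5364, 5429.5 and 4900.5 in windows 1 to 6, so depth moved with the windows and its part in the results was not tested beyond the scaling alternatives. Defining markers of neural progenitors were present, with 12 of 12 radial glia markers measured at 20994 CPM in low cells and 17789.5 to 19386 CPM in the windows. Microglia and fibroblast markers had 2 and 15 UMIs in all. The 20 neuron markers went the other way from the members, at 255 CPM in low cells and 206, 219, 168, 149, 139 and 147 CPM in windows 1 to 6. So did the 8 markers of oligodendrocyte precursors, at 2460.3 CPM in low cells and 2251, 1869, 1682, 1458, 1511 and 1635 CPM in windows 1 to 6. Both lists were also higher in windows 1 and 2 than in windows 3 and 4, and the part of cell type in the contrasts of windows with low cells and with each other was not tested. The 35 replication-dependent histone genes in the table, which are transcribed while DNA is copied, were highest in window 3, at 320.0 CPM against 178 CPM in low cells and 145 CPM in window 1; most histone transcripts lack the poly(A) tail that the method captures. Intervals throughout are 95% intervals, Poisson for levels and conditional binomial for ratios, and cover counting error only.

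The replication genes were highest together in the windows with the most S anchor UMIs. Summed over all 49 members, the level was 1765 CPM in low cells and 6581, 8016, 6809.7, 5138, 4033 and 3444 CPM in windows 1 to 6. Windows 1 to 3, called the S windows, stood 4.08 (3.99 to 4.17) times above low cells. A gene was counted as above when the whole interval of its ratio lay above 1.5, and 48 of the 49 members did, while 4.52% of the 11057 genes tested did. The median ratio was 4.44 over the members and 0.963 over all genes. The exception was Rpa3, the smallest subunit of the single-strand binding protein, at 1.57 (1.43 to 1.72). S anchors and members are S phase genes of the same cells, so their joint level is given as a description of where the members stood.

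**Figure D1:**
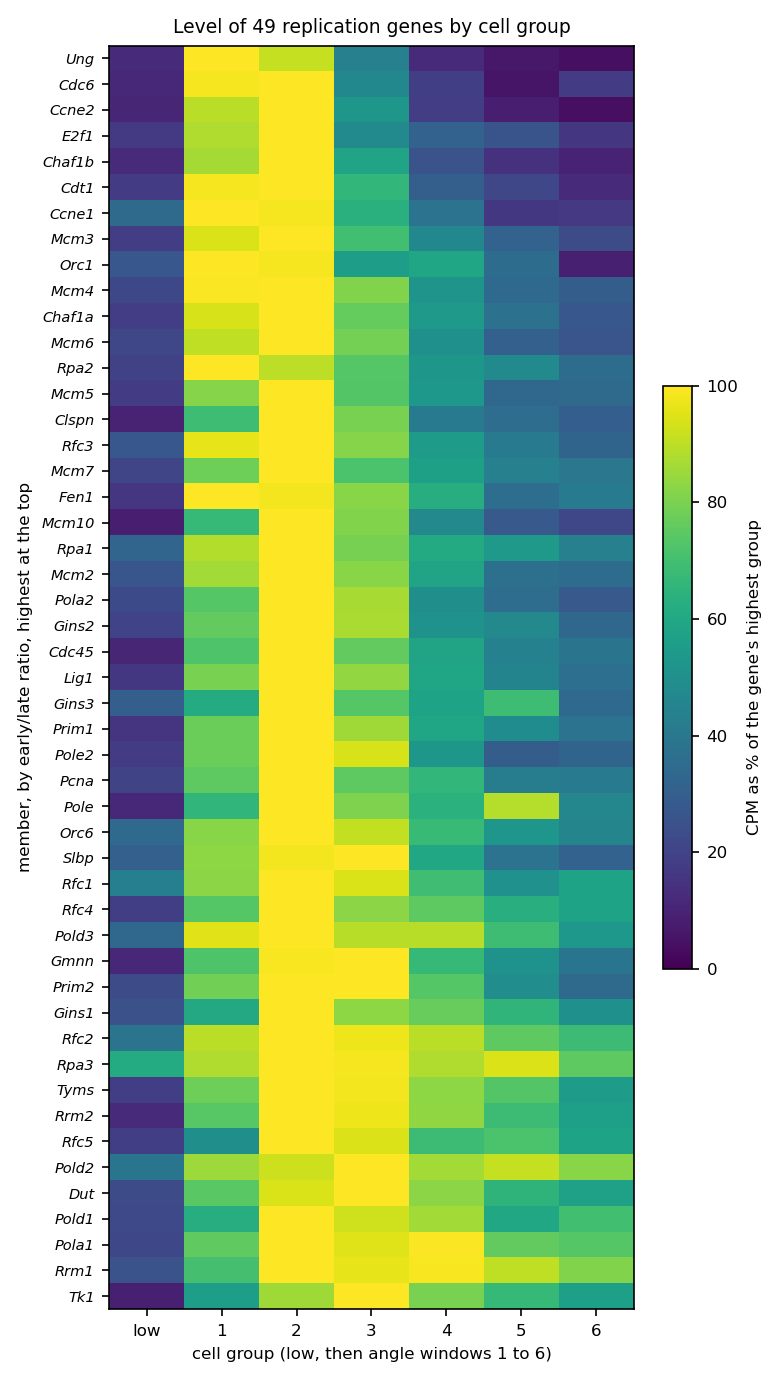
Levels of the 49 members (rows, ordered by the ratio of windows 1 and 2 to windows 3 and 4) in low cells and windows 1 to 6 (columns), as a percentage of each gene's highest CPM. Members at the top, such as Ung and Cdc6, were concentrated in windows 1 and 2, and those at the bottom, such as Rrm1 and Tk1, stayed high through windows 3 to 6; 5 members were highest in window 1, 38 in window 2 and 6 in window 3.

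The promoters were searched for the E2F site, as the words TTTCCCGC, TTTCGCGC, TTTGCCGC and TTTGGCGC on either strand. The windows were RefSeq's on build GRCm38.p6, 250 bases before to 50 after each start, and 41 of the 49 members matched by symbol, with 46 windows. An E2F word was found in 15 of the 46 member windows (32.6%) and in 744 of all 32851 windows (2.26%). Upstream sequences are shown for the helicase genes Mcm5 and Mcm6 and the polymerase gene Pola1, which hold words there, and for Ung and Tk1, the first and last members in the order below, which hold none. The first 3 stretches reach the RefSeq start. Those of Ung and Tk1 end 50 and 79 bases before it, where the gene begins in GENCODE M21. The bases nearer the start are not shown for these 2, and no word was found there either. Each is written 5′ to 3′ on the gene's strand, with E2F words in capitals, and overlapping words run together. None of these 5 stretches overlaps an exon of GENCODE M21. Their positions are chr8:75109309-75109508 (plus strand), chr1:128359706-128359905 (minus strand), chrX:93632156-93632355 (minus strand), chr5:114130186-114130385 (plus strand) and chr11:117826093-117826264 (minus strand).
Mcm5: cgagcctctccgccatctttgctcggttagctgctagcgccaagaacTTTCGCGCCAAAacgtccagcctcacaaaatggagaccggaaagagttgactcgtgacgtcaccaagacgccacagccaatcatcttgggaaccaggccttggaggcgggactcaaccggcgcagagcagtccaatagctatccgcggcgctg
Mcm6: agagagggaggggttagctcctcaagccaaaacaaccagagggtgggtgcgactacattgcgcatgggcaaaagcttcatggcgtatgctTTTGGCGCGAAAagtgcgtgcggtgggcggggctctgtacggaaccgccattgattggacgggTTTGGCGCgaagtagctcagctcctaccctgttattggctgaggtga
Pola1: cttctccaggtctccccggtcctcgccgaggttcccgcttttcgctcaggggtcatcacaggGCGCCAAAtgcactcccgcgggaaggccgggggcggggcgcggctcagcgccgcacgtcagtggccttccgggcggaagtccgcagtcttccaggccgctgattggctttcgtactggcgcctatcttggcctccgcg
Ung: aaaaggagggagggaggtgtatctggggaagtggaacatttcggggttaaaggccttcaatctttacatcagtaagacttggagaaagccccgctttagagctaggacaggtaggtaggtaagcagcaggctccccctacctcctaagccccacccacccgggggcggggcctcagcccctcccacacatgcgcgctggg
Tk1: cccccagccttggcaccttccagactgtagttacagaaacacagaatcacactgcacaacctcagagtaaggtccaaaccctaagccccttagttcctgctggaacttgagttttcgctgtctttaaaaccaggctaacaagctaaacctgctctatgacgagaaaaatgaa

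For Cdc6 and Orc1, both needed to license origins, 30 bases around the single word upstream of the RefSeq start are shown. They lie at chr11:98908002-98908031 and chr4:108579416-108579445, both on the plus strand. The Cdc6 stretch is in no exon of GENCODE M21 but lies inside the gene as annotated there, which begins at 98907801. The Orc1 stretch overlaps an exon of Orc1 there.
Cdc6: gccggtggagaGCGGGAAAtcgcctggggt
Orc1: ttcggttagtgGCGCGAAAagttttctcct
The word lay 138 bases before the start in Cdc6 and 27 before it in Orc1. In Mcm6 the words began 110, 106 and 47 bases before the start, in Mcm5 153 and 149 bases before it, and in Pola1 138 bases before it. Of the 14 matched members that were higher in windows 1 and 2 than in windows 3 and 4 (below), 8 had an E2F word in a window, and of the other 27 matched members 7 had one. Searched on either strand, the CHR element TTTGAA, known from genes of G2 and mitosis, was in windows of 0 of those 14 and 5 of those 27 members, against 17.9% of all windows, and the CCAAT box (the word CCAAT) was in 8 of 14 and 16 of 27, against 37.4% of all windows. A match is a string of letters and not a measured site.

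The members differed in how far their levels lay toward the first windows. Early windows (1 and 2) were compared with late windows (3 and 4). Window 4 is not one of the S windows and had medians of 6 S and 32 G2/M anchor UMIs, so the ratio runs from S toward G2/M and is not a position within S phase. A member was counted as higher early when the whole interval of the ratio lay more than 25% above 1, or higher late when that held for the inverse ratio. By this count 16 of 49 members were higher early, where 1.82% of all genes tested were, and 0 were higher late, where 1.99% were. Scaled as UMIs per cell instead of CPM, 8 were higher early and 1 late, because late cells held more UMIs each: the median ratio of all genes moved from 1.03 to 0.873, and 17 members had a ratio below 1 in place of 8. With the interval set against 1 instead, 30 members stood above it (12.2% of all genes), 2 below it (8.45%) and 17 held it. The median early over late ratio was 1.31 over the members and 1.03 over all genes. The order ran from Ung to Tk1, with neighbours not told apart: the intervals of all 48 adjacent pairs overlapped. Cut into 4 windows in place of 6, 3 members were higher early and 2 late. The 4 windows are wider, so early and late cover other ranges of the score there and the contrast is a different one. Thinned to 1000 UMIs or with only the odd places of the S anchor list, 27 were higher early. With only the even places of that list 24 were.

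**Figure D2:**
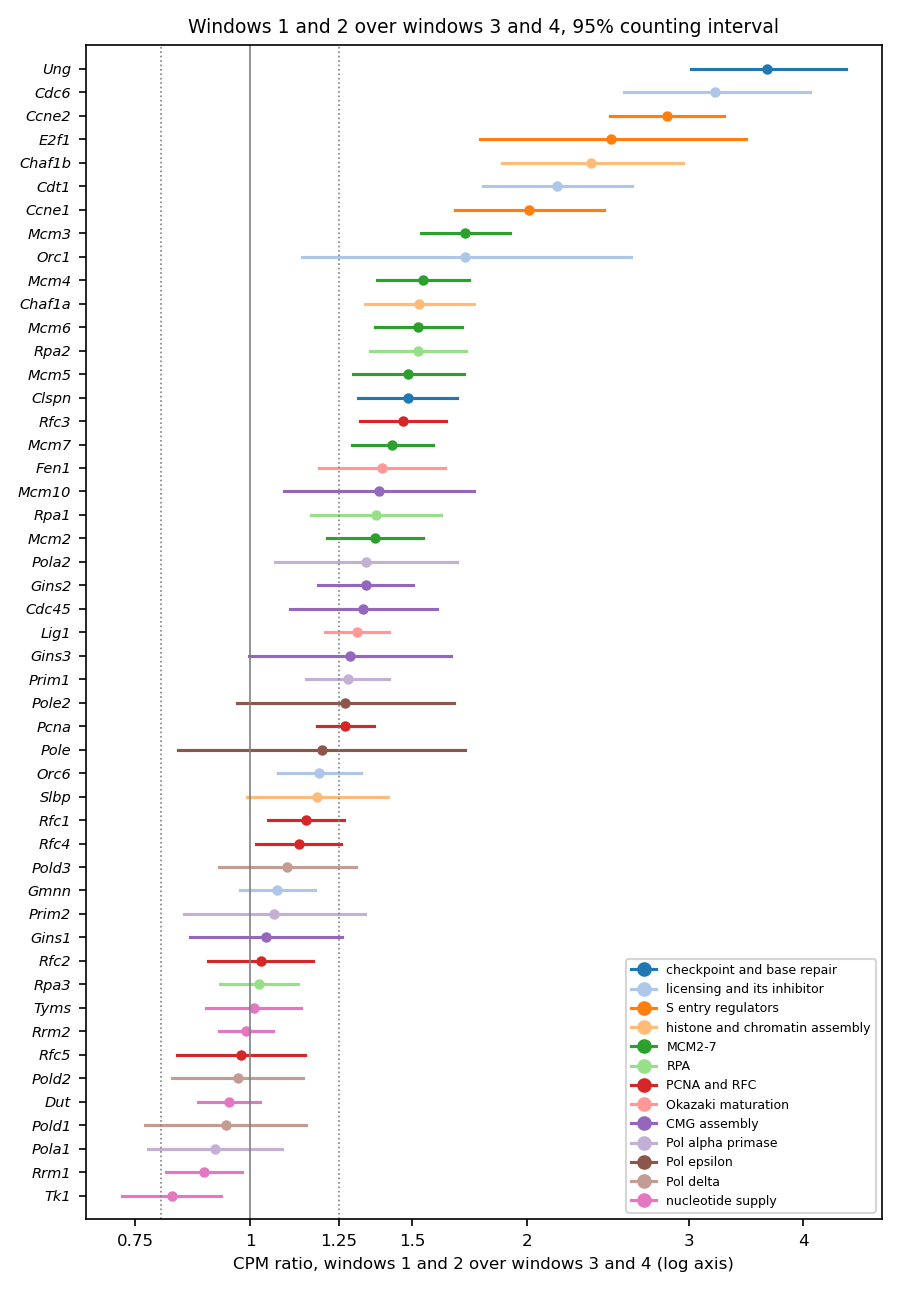
Ratio of CPM in windows 1 and 2 to windows 3 and 4 for each member (points, with 95% counting intervals; log axis), coloured by role; dotted lines mark 25% above 1 and its inverse and the solid line 1. The first 7 members lie between 3.65 and 2.01, and the 5 nucleotide supply genes lie between 0.822 and 1.01.

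Regulators of S phase entry had the highest early over late ratio of the groups. Ccne1 and Ccne2 encode the E-type cyclins that activate CDK2 at the G1/S transition, and E2f1 encodes an activating E2F. Ccne2 (chromosome 4, 11191351 to 11204779, mm10) stood at 21.6 CPM in low cells and 183, 204, 108, 37.3, 16.9 and 8.77 CPM in windows 1 to 6. Its early over late ratio was 2.84 (2.47 to 3.28), and its level in window 6 was below that in low cells. Ccne1 (chromosome 7, 38097984 to 38107534) stood at 31.8 CPM in low cells and 91.9, 90.7, 58.4, 35.1, 14.8 and 15.1 CPM in windows 1 to 6, an early over late ratio of 2.01 (1.67 to 2.43). The 2 cyclin genes differed in their contrast with low cells. Ccne2 was 7.66 (6.30 to 9.38) times higher in S windows and Ccne1 2.52 (2.10 to 3.03) times, intervals that do not overlap, and low cells held 34.6% of the highest window's level for Ccne1 and 10.6% for Ccne2. E2f1 stood at 6.02 CPM in low cells and 31.3, 35.5, 16.8, 11.1, 9.28 and 5.58 CPM in windows 1 to 6, with a ratio of 2.47 (1.78 to 3.47). As a group the 3 genes had an early over late ratio of 2.51 (2.26 to 2.79), and all 3 were higher early.

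Licensing factors were split. Cdc6, which loads the helicase with CDT1, stood at 9.22 CPM in low cells and 80.5, 81.6, 38.2, 15.1, 4.64 and 14.3 CPM in windows 1 to 6, with an early over late ratio of 3.21 (2.55 to 4.06). Cdt1 stood at 16.7 CPM in low cells and 94.5, 95.8, 63.4, 28.8, 20.2 and 11.95 CPM in windows 1 to 6, with a ratio of 2.16 (1.79 to 2.60). Both were high in windows 1 and 2 alike and low by window 4. They differed after that. Cdc6 was higher in window 6, at 14.3 (8.50 to 22.7) CPM from 18 UMIs, than in window 5, at 4.64 (2.32 to 8.30) CPM from 11 UMIs. Cdt1 was not higher in window 6 than in window 5. Orc1, the cell-cycle regulated subunit of the origin recognition complex, was the member with the fewest UMIs, at 4.89 CPM in low cells and 17.97, 17.7, 10.1, 10.7, 6.33 and 1.59 CPM in windows 1 to 6, and its ratio of 1.71 (1.14 to 2.60) was not past the threshold. Orc6, another subunit, had a ratio of 1.19 (1.07 to 1.32). Gmnn, which encodes geminin, the inhibitor of CDT1, stood at 31.2 CPM in low cells and 199.7, 273, 276, 185, 140.0 and 108 CPM in windows 1 to 6, highest in window 3. Its early over late ratio was 1.07 (0.974 to 1.18), below those of Cdc6 and Cdt1 with no overlap of intervals. In the G2/M windows Gmnn was still 4.12 (3.45 to 4.95) times the level of low cells, whereas Cdt1 was at 1.04 (0.739 to 1.45) and Cdc6 at 0.868 (0.528 to 1.40).

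The 6 genes of the MCM2-7 helicase lay close together in their early over late ratios, whose intervals all overlapped, but not in their contrasts with low cells. Their summed level was 266 CPM in low cells and 1118, 1266, 959.6, 668, 447 and 397 CPM in windows 1 to 6, an early over late ratio of 1.51 (1.44 to 1.58). Single subunits ranged from 1.37 (1.21 to 1.54) for Mcm2 to 1.71 (1.53 to 1.92) for Mcm3, and all but Mcm2 were past the threshold. Mcm3 stood at 42.3 CPM in low cells and 219.7, 233, 162, 109, 72.96 and 53.4 CPM in windows 1 to 6, and Mcm7 at 57.6 CPM in low cells and 216, 276, 198, 157, 119.8 and 109 CPM in windows 1 to 6. Mcm4 and Mcm7 had ratios of 1.54 (1.37 to 1.73) and 1.43 (1.29 to 1.58). In S windows the 6 genes were 3.39 (2.94 to 3.91, Mcm2) to 4.89 (4.07 to 5.92, Mcm5) times the level of low cells, with no overlap between these 2. In the G2/M windows they were 1.36 (1.14 to 1.63, Mcm6) to 2.02 (1.74 to 2.34, Mcm7) times that level, again with no overlap between these 2. Mcm5 and Mcm6, whose promoters are printed above, had early over late ratios of 1.49 (1.29 to 1.71) and 1.52 (1.37 to 1.70). Scaled per cell, the ratios of the 6 genes were 1.16 to 1.46, in the same direction.

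Genes that turn the loaded helicase into a fork were less weighted to the early windows than the helicase. Mcm10, Cdc45 and the GINS genes Gins1, Gins2 and Gins3 stood together at 84.1 CPM in low cells and 314, 447, 369, 254, 221 and 161 CPM in windows 1 to 6. The group's early over late ratio was 1.28 (1.18 to 1.38), below that of MCM2-7 with no overlap, and none of the 5 was past the threshold. Mcm10 had the highest S over low ratio of all members, 9.82 (6.44 to 15.6), from 4.52 CPM in low cells to 52.7 CPM in window 2. Cdc45 had a ratio of 7.85 (5.78 to 10.9). Gins1 and Gins3 had lower contrasts, 3.35 (2.66 to 4.25) and 2.64 (2.01 to 3.50). As with MCM2-7, the GINS subunits did not share a single contrast: the intervals of Gins2, at 4.44 (3.81 to 5.19), and Gins3 do not overlap.

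**Figure D3:**
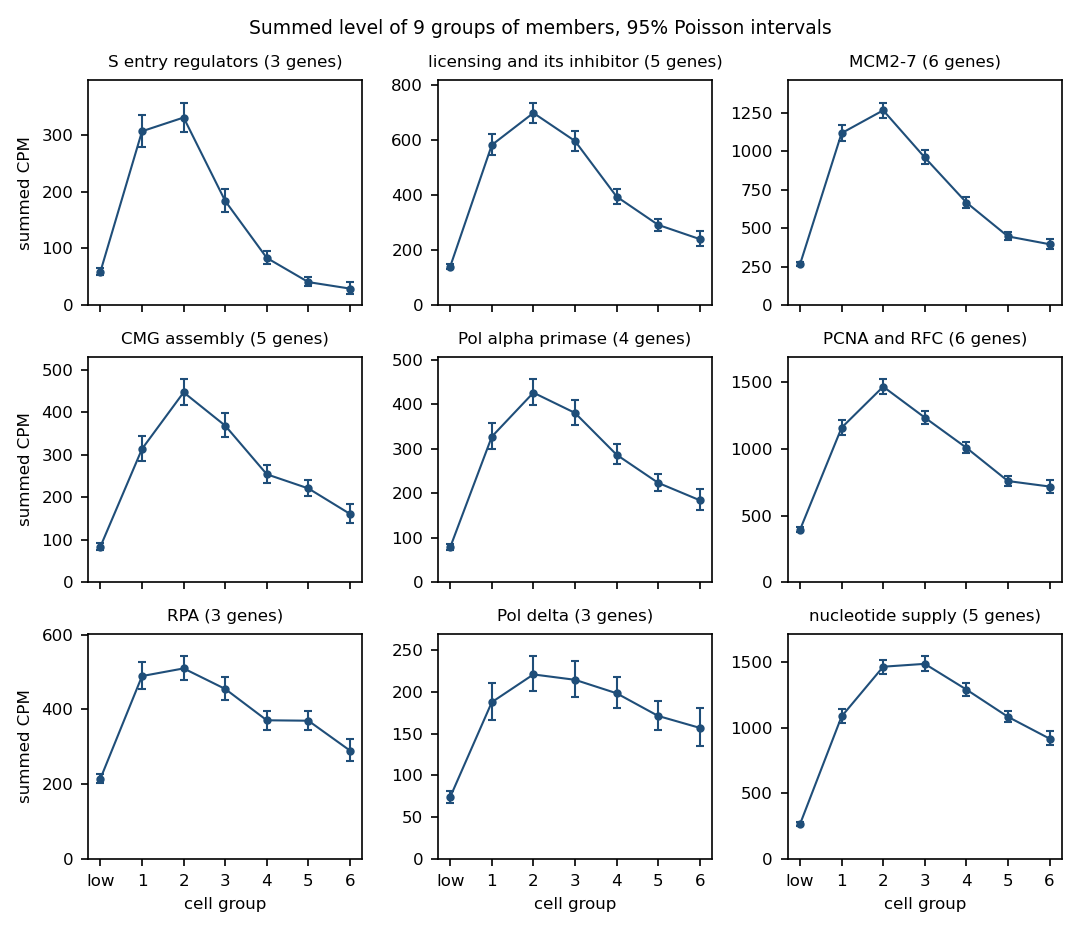
Summed CPM of 9 groups of members (panels; axes start at 0) in low cells and windows 1 to 6, with 95% Poisson intervals. S entry regulators drop from 330.3 CPM in window 2 to 29.5 CPM in window 6, below low cells, while nucleotide supply genes are still at 916 CPM there.

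The genes of polymerases alpha and delta were less weighted to the early windows than those of MCM2-7, with no overlap of intervals, while the interval of polymerase epsilon, at 1.24 (1.003 to 1.54), overlapped that of MCM2-7. Polymerase alpha and primase (Pola1, Pola2, Prim1, Prim2) stood at 78.6 CPM in low cells and 327, 426, 380.1, 286, 223 and 184 CPM in windows 1 to 6, a ratio of 1.17 (1.08 to 1.26). Within it Prim1, the catalytic primase subunit, had a ratio of 1.28 (1.15 to 1.42) and Pola1, the catalytic polymerase subunit, 0.916 (0.774 to 1.08), with no overlap. Pola1 stood at 17.9 CPM in low cells and 61.9, 82.1, 78.05, 81.7, 62.4 and 60.6 CPM in windows 1 to 6, with windows 2 to 4 within 78.05 to 82.1 CPM. Pola2 and Prim2, the partner subunits, had ratios of 1.34 (1.06 to 1.68) and 1.06 (0.847 to 1.33). The polymerase delta genes Pold1, Pold2 and Pold3 had a group ratio of 1.01 (0.908 to 1.11), and each interval held 1. Pold2, an accessory subunit, stood at 34.4 CPM in low cells and 75.2, 81.6, 88.2, 75.9, 80.6 and 72.5 CPM in windows 1 to 6, the flattest course of the 3. The polymerase epsilon genes Pole and Pole2 had 221 and 310 UMIs, and ratios of 1.20 (0.836 to 1.72) and 1.27 (0.968 to 1.67).

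The clamp and its loader were more varied. Pcna, which encodes the sliding clamp, stood at 105 CPM in low cells and 389, 517, 389, 343, 219 and 211 CPM in windows 1 to 6, an early over late ratio of 1.27 (1.18 to 1.36) and an S over low ratio of 4.15 (3.78 to 4.56). Of the 5 loader genes Rfc3 was higher early, at 1.47 (1.32 to 1.63), and Rfc5 had the lowest ratio, at 0.978 (0.832 to 1.15). Rfc5 stood at 19.6 CPM in low cells and 51.9, 104, 98.8, 71.5, 74.7 and 60.6 CPM in windows 1 to 6, so its level in window 1 was 0.497 (0.378 to 0.649) of that in window 2, against 0.965 (0.834 to 1.12) for Rfc3. Rfc2 and Rfc4 had ratios of 1.03 (0.899 to 1.17) and 1.13 (1.01 to 1.26). Rfc1, the large subunit, had the lowest after Rpa3 of the S over low ratios of the members, 2.15 (1.95 to 2.36). The RPA genes were as uneven. Rpa2 was 4.52 (3.87 to 5.30) times higher in S windows, Rpa1 2.77 (2.32 to 3.31) and Rpa3 1.57 (1.43 to 1.72), 3 intervals with no overlap among them. Rpa3 stood at 146 CPM in low cells and 209, 237, 234, 209, 225 and 178 CPM in windows 1 to 6. Fen1 and Lig1, which process and seal Okazaki fragments, had overlapping intervals, at S over low ratios of 5.88 (4.68 to 7.47) and 5.48 (4.89 to 6.15) and early over late ratios of 1.39 (1.19 to 1.63) and 1.31 (1.21 to 1.41).

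Nucleotide supply genes had the lowest early over late ratio of the groups. Rrm1 and Rrm2 encode the subunits of ribonucleotide reductase, Tyms thymidylate synthase, Tk1 thymidine kinase and Dut dUTPase. Together they stood at 265 CPM in low cells and 1084, 1462, 1484, 1289, 1081 and 916 CPM in windows 1 to 6, an early over late ratio of 0.945 (0.908 to 0.983). Tk1 stood at 15.1 CPM in low cells and 97.2, 149, 174, 139, 117 and 98.02 CPM in windows 1 to 6, with a ratio of 0.822 (0.726 to 0.93), the lowest of the members. Rrm1 stood at 65.1 CPM in low cells and 178, 253, 244, 251, 229 and 206 CPM in windows 1 to 6, with a ratio of 0.891 (0.81 to 0.98), and these were the 2 members whose whole interval was below 1. Rrm2 stood at 61.9 CPM in low cells and 384, 519, 506, 433, 355 and 294 CPM in windows 1 to 6, and its ratio of 0.99 (0.926 to 1.06) held 1 in its interval. Tyms and Dut, at 1.01 (0.896 to 1.14) and 0.949 (0.878 to 1.03), held it as well. The 2 reductase subunits differed in their contrast with low cells, 7.70 (6.86 to 8.66) for Rrm2 and 3.51 (3.11 to 3.97) for Rrm1. All 5 genes were above 1.5 in the G2/M windows, and Tk1 was 7.33 (5.75 to 9.44) times higher there.

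Genes of chromatin assembly and of base repair completed the set. Chaf1a and Chaf1b encode subunits of the chromatin assembly factor that deposits histones behind the fork. Chaf1b stood at 8.65 CPM in low cells and 63.2, 72.96, 42.7, 18.6, 10.5 and 7.17 CPM in windows 1 to 6, an early over late ratio of 2.35 (1.88 to 2.96), against 1.53 (1.33 to 1.75) for Chaf1a, with no overlap. Slbp, which encodes the protein that binds the stem-loop of histone mRNAs, had a ratio of 1.18 (0.991 to 1.41). Ung, the uracil DNA glycosylase (chromosome 5, 114130386 to 114139323), had the highest early over late ratio of the members, with 16.2 CPM in low cells and 134, 123, 58.4, 16.4, 8.44 and 5.58 CPM in windows 1 to 6, a ratio of 3.65 (3.02 to 4.45). Clspn, which encodes the checkpoint adaptor claspin, stood at 19.00 CPM in low cells and 134, 194, 154, 80.3, 69.2 and 58.2 CPM in windows 1 to 6, an S over low ratio of 8.59 (6.98 to 10.7).

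The same 2 scores were also cut another way, in cells with few G2/M anchor UMIs (12 or fewer). By S anchor UMIs, 620 cells had 0 to 1, 521 had 2 to 4, 236 had 5 to 7 and 209 had 8 or more. The first 2 groups make up the low cells and the other 2 lie in the windows. This view therefore re-cuts the same contrast, and its groups are not points in time. These groups were chosen after the window results were seen. The summed members stood at 1266, 2343, 5813 and 7699 CPM. With 5 to 7 S anchor UMIs they were at 75.5% (73.1 to 78.01) of the level at 8 or more. Ccne1 was at 108% (80.8 to 144) in that group and Ccne2 at 50.3% (40.7 to 62.1), with no overlap, so the 2 cyclin genes were at different points of their range in the same cells. The origin subunit gene Orc6 was at 95.5% (79.1 to 115) and Mcm2 at 93.3% (75.3 to 116). Rrm2 was at 61.4% (53.3 to 70.6) and Mcm10 at 48.4% (29.7 to 77.2). With 0 to 1 S anchor UMIs, Cdc6 was at 3.04% (1.35 to 5.98), Ccne2 at 3.58% (2.27 to 5.41) and Clspn at 5.69% (3.68 to 8.51) of the highest group, whereas Pold2 was at 41.9% (30.7 to 57.2) and Rpa3 at 66.2% (56.03 to 78.5).

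In the G2/M windows (5 and 6), 25 of 49 members were above 1.5 relative to low cells, where 4.43% of all genes were, and Ccne1 alone was below the inverse of 1.5, where 2.18% were. The summed level was 2.17 (2.11 to 2.23) times that of low cells. Tk1, Pole and Rrm2 had the highest ratios, 7.33 (5.75 to 9.44), 6.77 (3.67 to 13.4) and 5.40 (4.77 to 6.11). Ung, Ccne1, Ccne2, Cdc6 and Orc1 had ratios under 1 in CPM. Ccne1 was at 0.468 (0.338 to 0.64), Ung at 0.46 (0.287 to 0.716) and Ccne2 at 0.65 (0.458 to 0.912), so these 3 genes stood lower in CPM in the G2/M windows than in low cells. As UMIs per cell the 3 ratios were 0.644 (0.465 to 0.88), 0.633 (0.395 to 0.985) and 0.894 (0.63 to 1.254), the last with an interval that held 1, and those of Cdc6 and Orc1 turned to 1.19 (0.727 to 1.93) and 1.32 (0.671 to 2.52). Scaled per cell, 38 members were above 1.5, and with thinning to 1000 UMIs 15 were. Shares of all genes were not counted under these settings. Scaling per cell raises the ratio of every gene, because cells held a mean of 6374 and 6469 UMIs in windows 5 and 6 against 4658 in low cells. The step from 25 to 38 is therefore not read as a result about the members.

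**Figure D4:**
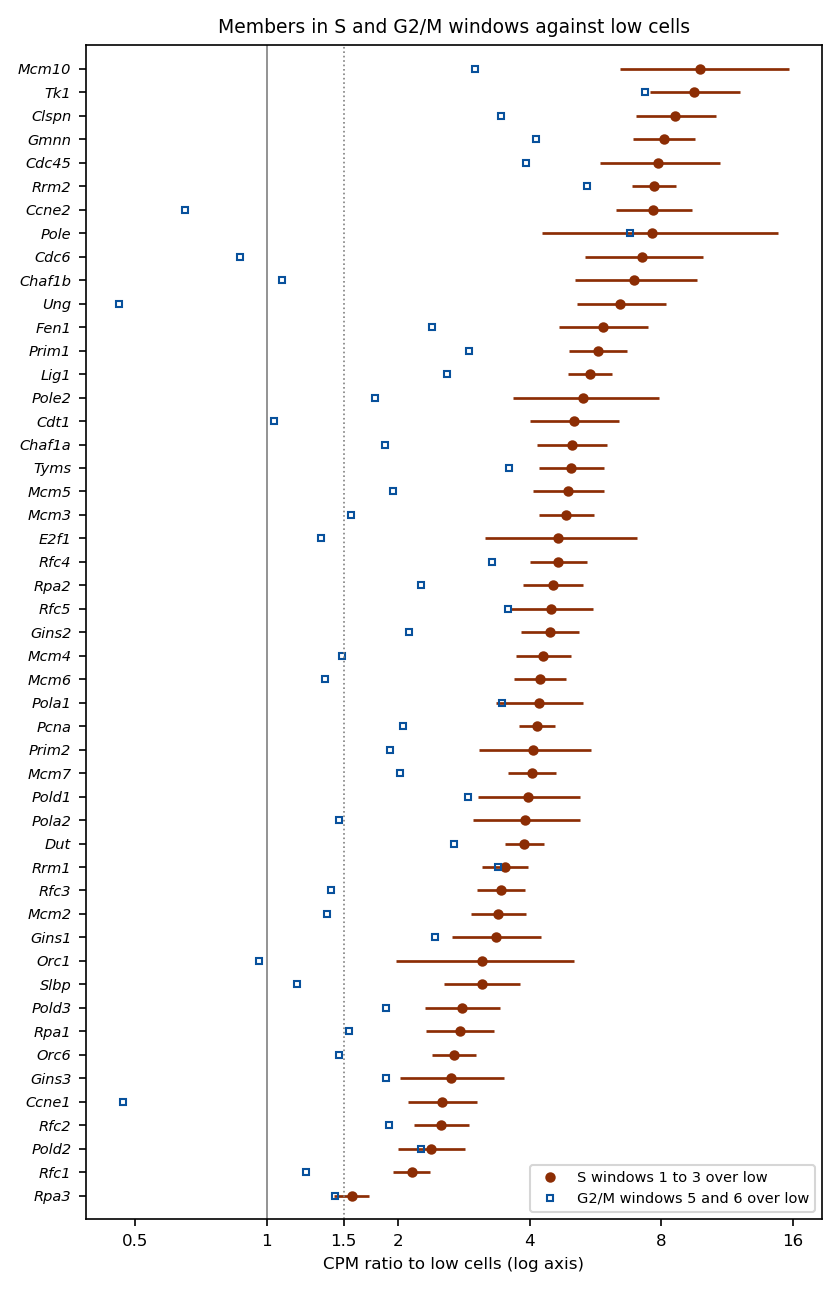
Ratio of each member's CPM in S windows 1 to 3 (filled points, with 95% counting intervals) and in G2/M windows 5 and 6 (open squares) to its CPM in low cells, on a log axis, with 1 (solid) and 1.5 (dotted) marked. Ratios in S windows run from 1.57 (Rpa3) to 9.82 (Mcm10); Ung, Ccne1 and Ccne2 lie left of 1 in the G2/M windows.

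UMIs of replication genes were also counted in low cells, at a level that varied with the gene. No background share could be set for them, and the part of free RNA in droplets was not tested. The level in low cells was 8.57% (Mcm10) to 61.4% (Rpa3) of the highest window, with a median of 20.03%. It was under 20% for 24 members and over 40% for Rpa3 and Rfc1. At equal depth, Rpa3 had a UMI in 24.8% (22.3 to 27.4) of low cells and 35.6% (30.7 to 40.6) of cells in window 2. For Pcna the shares were 15.7% (13.6 to 17.9) and 64.97% (59.9 to 69.8), for Rrm2 9.64% (7.99 to 11.5) and 57.5% (52.3 to 62.6), and for Cdc6 1.67% (1.01 to 2.59) and 15.2% (11.8 to 19.3). Without thinning, the shares in low cells were 43.03% for Rpa3, 31.03% for Pcna, 19.2% for Rrm2 and 3.51% for Cdc6. A stricter group of 307 cells, at or below the 20th percentile of both scores (1 and 5 UMIs), had the members at 1195 CPM (1139 to 1254), 0.606 (0.575 to 0.639) of the other low cells. There Cdc6 was at 1.41 CPM from 2 UMIs, Gmnn at 9.89, Rrm2 at 26.8 and Rpa3 at 133 CPM. Rpa3 there was 0.884 (0.746 to 1.04) of its level in other low cells, and Rrm2 0.36 (0.249 to 0.506).

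Low cells of different kinds were then compared. Among low cells, the roughly 5% richest in hypoxia genes (52 cells) had the members at 1008 CPM (867 to 1166), 0.563 (0.483 to 0.652) of the other low cells. Those richest in amino acid response genes (55 cells) had 1259 CPM (1123 to 1407), a ratio of 0.704 (0.626 to 0.788). Those richest in Delta ligand genes (29 cells) had 1299 CPM (1088 to 1539), a ratio of 0.732 (0.612 to 0.869). Those richest in p53 target genes (50 cells) had 1288 CPM (1139 to 1451), a ratio of 0.722 (0.637 to 0.815). All 4 groups lay below the other low cells, with median anchor counts of 1 S and 5 to 6 G2/M UMIs, against 1 and 6 in low cells as a whole. Their median depths were 3184 to 4048 UMIs, against 4001.

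**Figure D5:**
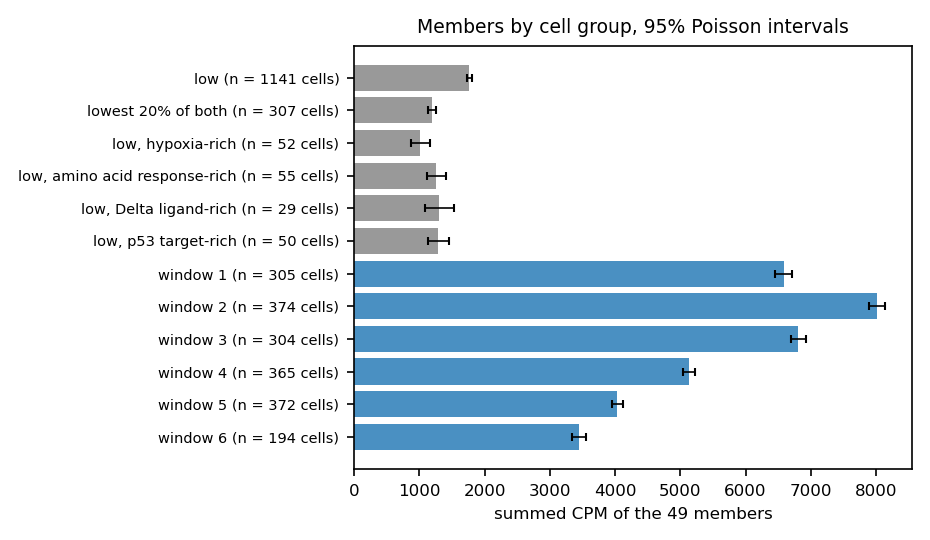
Summed CPM of the 49 members in low cells and 5 subsets of them (grey; cells with neuron transcripts are not drawn) and windows 1 to 6 (blue), with 95% Poisson intervals and the number of cells in each group. The 5 subsets lie between 1008 and 1299 CPM, and the windows between 3444 and 8016 CPM.

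Neurons do not replicate DNA, so cells with neuron transcripts were examined for a background level. The planned rule, UMIs of at least 4 of 20 neuron markers, took in 36 cells, but their median depth was 7738 UMIs, 20 of them lay in the windows and the members stood at 4663 CPM (4449 to 4885), so the rule did not pick resting cells. After thinning, 15 cells met it, 13 of them low cells, with a median of 2647 UMIs and the members at 2279.7 CPM (1909 to 2702); this group was added after the first was seen. Of the 36 cells, the 16 that were low cells had the members at 1463 CPM (1196 to 1773), 0.827 (0.675 to 1.003) of the other low cells. The 15 cells stood at 1.29 (1.08 to 1.53) of the low cells outside them. They include 2 cells from the windows, so the 2 ratios are not of like groups. What those 2 cells contributed was not tested. In these 15 cells Pcna had a UMI in 6.67% (0.169 to 31.9) and Cdc6 in 0 of 15, where the exact binomial interval reaches 21.8%. The number of cells was too small to set the level that free RNA in droplets gives.

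Of 44 other replication genes on a fixed list, all had at least 50 UMIs and 29 were above 1.5 in S windows over low cells, with 0 below and 15 neither (all genes, 4.52% above). Their median ratio was 2.04, against 4.44 for the members. The highest ratios were those of the helicase gene Recql4, 14.7 (5.43 to 55.6), the repressor gene E2f7, 11.96 (5.23 to 33.7), the histone chaperone gene Asf1b, 8.28 (5.54 to 12.8), the cyclin gene Ccna2, 7.86 (6.35 to 9.82), and the checkpoint kinase gene Chek1, 6.05 (4.78 to 7.76). The lowest were those of Pold4, 0.642 (0.512 to 0.802), Rrm2b, 0.817 (0.633 to 1.05), Orc5, 1.02 (0.954 to 1.09), Top1, 1.04 (0.993 to 1.10), and Orc4, 1.05 (0.895 to 1.24). Partners of members differed in this ratio. Gins4 and Orc2, which encode partners of members and were named after their values were seen, were above 1.5, at 2.03 (1.69 to 2.45) and 1.90 (1.66 to 2.18). Among the 5 lowest, Pold4, the small subunit of polymerase delta, had an interval that did not pass the inverse of 1.5, while Pold1, Pold2 and Pold3 were 2.38 to 3.96 times higher. Rrm2b, the p53-regulated form of the small reductase subunit, had an interval that held 1 while Rrm2 was 7.70 times higher. The origin subunit genes Orc4 and Orc5 had intervals that held 1 while Orc1 and Orc6 were 3.11 and 2.68 times higher. On the early over late comparison, 4 of the 44 were higher early (all genes, 1.82%) and 2 higher late (all genes, 1.99%). Those higher early were E2f2, Wdhd1, Cdk2 and Timeless, all named after their values were seen. Their ratios were 2.06 (1.34 to 3.21), 1.996 (1.56 to 2.56), 1.67 (1.37 to 2.05) and 1.46 (1.253 to 1.71). Those higher late were Ccna2 and Dbf4, the latter named after its value was seen. Dbf4, the activator of the CDC7 kinase, had a ratio of 0.549 (0.475 to 0.634) and Ccna2 0.332 (0.293 to 0.375), both lower than any member.

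Among the 9871 genes with at least 100 UMIs, all 49 members included, 11 of the 100 highest S over low ratios and 34 of the 200 highest were members. The 5 highest genes outside the members and anchors were Hist1h2ak, Ska1, Ankle1, Recql4 and Slfn9, at 14.3 to 18.9 times. They stood at only 0.753 (Ankle1 and Recql4) to 3.39 CPM (Slfn9) in low cells, so the ratios are loose. The intervals of Ankle1 and Recql4 were 5.43 to 55.6, and all 5 overlapped that of the highest member, Mcm10 (6.44 to 15.6). Of the members, Pcna and Tyms have pseudogenes named after them in GENCODE M21. There 2 members, Cdt1 and Pole2, overlap another gene on the same strand. Another gene overlaps 15 members on the opposite strand, among them Tk1, Mcm7 and Cdc45. Whether counting used strand is not given in the sources used here, so the counts of all these members are less certain.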

How the data were processed

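RNA of dissociated neurosphere cells was captured by Drop-seq, which tags the 3′ ends of polyadenylated RNA. The authors deposited 1 table of raw counts (UMIs per gene and barcode, not normalized), with 19144 genes and 4000 barcodes of whole numbers, 17591915 UMIs in all. Per the submitters' processing notes the build was mm10. How reads were aligned and counted and how barcodes were selected is not given in the sources used here. The 2 labelled samples form 1 group and the table does not separate them, so they were treated as 1 sample, with no p-value.

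Filters of 500 genes or more and a mitochondrial share of 10% or less left 3765 barcodes with 17395968 UMIs, a median of 3869 and a range of 638 to 54060. No doublet caller was run, and doublets may lie among cells of high depth. Counts were summed per group of cells and given per 1000000 UMIs, not divided by gene length, so levels of different genes are not ranked. Windows were 15 degrees each of the angle between the anchor scores, taken as square roots less their 20th percentile and divided by their SD. Poisson, conditional binomial and Clopper-Pearson intervals are at 95% and treat UMIs or cells as independent, so they do not hold differences between cultures. All contrasts were computed on the 11057 genes with at least 50 UMIs. Any member could be named, with the 5 highest and 5 lowest of the other replication genes and the 5 highest remaining genes. Members and lists were chosen with earlier results of these data known. Alternatives changed the filters, thinning, anchors, boundaries, windows and scaling. Calculations used Python 3.11.15, numpy 2.4.6, scipy 1.17.1 and pandas 2.3.3, and were tested on simulated data. Gene positions are from GENCODE M21.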

Additional observations from a re-analysis of the deposited data

How the results depend on the processing

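Of 96 values under 16 alternatives, 80 stayed within the limits set for a change, and 16 moved. For counts the limit was a factor of 1.5, or any change from 0, and for the summed ratio it was the main interval. The 80 include 16 values of 1 count that was 0 throughout, of members whose S over low interval lay wholly between 1/1.5 and 1.5. They also include the minimums of 200 and 1000 genes, which left the cells used unchanged. The count of members above 1.5 in S windows was 47 to 49 under all 16. The summed S over low ratio, 4.08, was 2.98 with thinning to 1000 UMIs, 4.83 with scores from all UMIs, 3.13 and 3.16 with S anchors in odd or even places, 4.60 with the low group at the 40th percentile, 4.19 as a mean of per-cell CPM, 4.68 as UMIs per cell and 3.98 without cells above 15000 UMIs. The 25 members above 1.5 in G2/M windows became 15 at 1000 UMIs and 38 as UMIs per cell. With S anchors in odd or even places they were 17 and 18, within the limit for counts. The count of members higher early was 24 with even S anchors, also within that limit. The 16 members higher early became 27 at 1000 UMIs, 27 with odd S anchors, 8 as UMIs per cell and 3 with 4 windows, and the 0 higher late became 1 as UMIs per cell and 2 with 4 windows. The cause was not tested, except that UMIs per cell keep the difference in depth between windows. With 4 windows the early and late groups cover other ranges of the angle than in the main setting. The counts of members higher early and late with 4 windows are therefore those of a different contrast. Shares of all genes were counted under the main setting only. Minimums of 200 and 1000 genes left the same number of cells with at least 2000 UMIs (3055) and the same values for these results. No paired analysis was possible because the labels give 1 group and the table does not separate its samples, so leaving out a replicate was also not possible. Depth limits the members with few UMIs most, such as Orc1 with 157 UMIs.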
